A study of Drosophila melanogaster with 4 samples.

Results

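The sarcomere and contraction genes described here are 36 genes chosen by name from textbook knowledge of the muscle contractile apparatus: 6 thick filament genes, 4 muscle actins, 9 troponin and tropomyosin genes, 4 giant elastic and M-line protein genes, 7 Z-disc genes, 4 genes of thin filament ends and actin binding, and 2 calcium handling genes. All 36 were found by FlyBase identifier among the 17875 genes counted. They were measured by single-cell RNA sequencing of whole embryos of the wild-type OregonR strain of Drosophila melanogaster, which carried no transgene and received no treatment. There were 4 libraries, 2 of embryos at stages 10 to 12 (stages 10-12) and 2 of embryos at stages 13 to 16 (stages 13-16), each from a pool of whole embryos. Stages 10-12 span the extended germ band and its retraction, when muscle founders are chosen and myoblasts begin to fuse. Stages 13-16 span dorsal closure and the assembly of the body wall and gut muscles. Each library had its own collection and sequencing dates, so the stage and the date cannot be told apart. The study aged the early embryos at a lower temperature than it collected them, and kept the late ones at room temperature. The stage and the rearing temperature therefore cannot be told apart either. With 2 libraries a stage, the p-values measure the spread between those libraries, estimated in part from all genes together.

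A sarcomere is the repeating contractile unit of muscle. Myosin thick filaments slide along actin thin filaments, calcium released through the ryanodine receptor binds troponin C and lets tropomyosin move off the myosin binding sites, titin-like proteins tie the thick filaments to the Z-discs, and the Z-discs hold the ends of the thin filaments. In the fly embryo, founder cells and fusion-competent myoblasts (FCMs) fuse into the syncytial somatic muscles of the body wall, while the circular and longitudinal visceral mesoderm (CVM and LVM) form the muscle around the gut and the dorsal vessel forms the heart.

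The libraries held 160693359 and 71622535 unique molecular identifiers (UMIs, each marking 1 captured RNA molecule) in 20529 and 13758 barcodes at stages 10-12, and 186017099 and 394684653 UMIs in 39078 and 36217 barcodes at stages 13-16. Any 2 libraries shared 94 to 389 barcodes, 0.683% to 1.10% of the smaller library. After quality filters and removal of predicted doublets, 14038, 8168, 23618 and 21055 cells were kept, and 4366, 4673, 6810 and 9115 low-quality droplets were set aside. Cells were clustered within each stage without the 36 genes, and clusters were named from other marker genes, so that each name means cells like that type. In every library where the class was summed, all markers exceeded their level in non-muscle cells for muscle precursors (9 of 9) and CVM (9 of 9). So did those of LVM (7 of 7), hindgut muscle (6 of 6) and pharyngeal muscle (5 of 5). The same held for 8 of 9 markers of FCMs, 8 of 12 of somatic muscle and 4 of 10 of the dorsal vessel, whose cells at stages 10-12 had little of the heart markers Hand, H15 and prc. The clusters were named by high levels of these same markers, so the excess is largely set by the naming and is no separate check of it. Muscle precursors were found at stages 10-12 only, and pharyngeal muscle cells came almost only from replicate 1 of stages 10-12. Between 8.05% and 32.3% of the kept cells of a library stayed unnamed.

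The genes were summed over the cells of a class in each library and expressed as UMIs of the gene per 1000000 UMIs of that sum (CPM). Each UMI marks the 3′ end of an RNA, so these values need no scaling by gene length, and isoforms are not separated. Together the 36 genes took 0.674% and 0.387% early and 1.33% and 2.46% late of the UMIs of somatic muscle. The corresponding shares were 0.523% and 0.431% early and 2.05% and 3.11% late in CVM and 0.387% and 0.465% early and 1.18% and 4.59% late in LVM. The late libraries lay above both early libraries in all of these classes. In FCMs the order was the opposite, with 0.792% and 0.585% early and 0.412% and 0.503% late. Muscle precursors, found at stages 10-12, were at 0.161% and 0.123%. Non-muscle cells were at 0.139% and 0.0980% early and 0.190% and 0.266% late, and the droplets set aside at 0.218% and 0.116% early and 0.212% and 0.487% late. At stages 13-16 replicate 2 exceeded replicate 1 for 31 of the 36 genes in somatic muscle, 33 in LVM and 24 in CVM, and at stages 10-12 replicate 1 exceeded replicate 2 for 32 in somatic muscle. The share of all genes that were higher in the same replicate is not given. The late collections are not of one age: by the study's account the second held more of the younger embryos of that range and the first more of the older ones. The part of age in these counts was not tested.

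**Figure D1:**
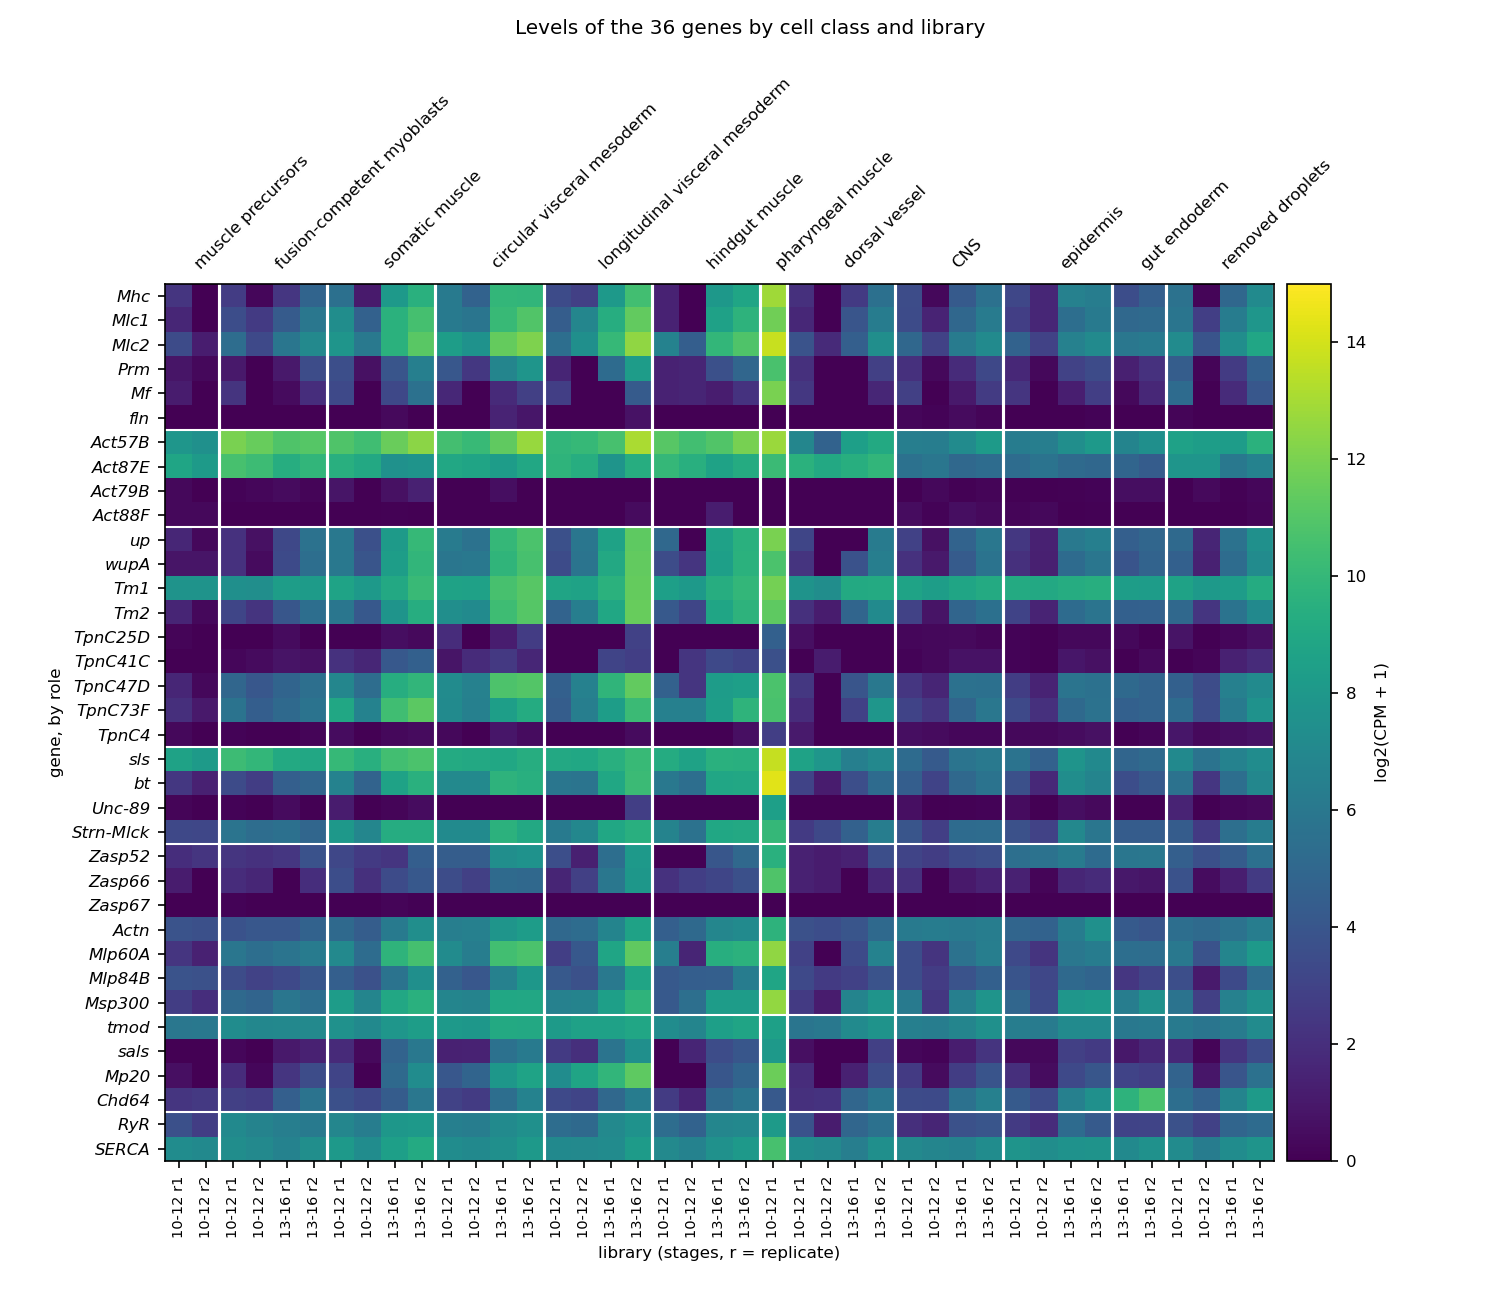
Level of each of the 36 genes (rows, grouped by role) in each cell class and library (columns), colored by log2(CPM + 1). The rows of Mhc, Mlc1, Mlc2, up, wupA, Tm1, Tm2, TpnC47D and TpnC73F are bright in the late somatic and visceral muscle columns and in the pharyngeal muscle column, whereas Act57B, Act87E and sls are already bright in the early FCM and somatic muscle columns.

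In somatic muscle most of the contractile genes tested rose between stages 10-12 and 13-16. There were 847 and 376 such cells early and 1745 and 1904 late, and edgeR's quasi-likelihood test on the summed counts was used, with p-values adjusted over all genes tested. Of 29 members tested, 24 rose at an adjusted p under 0.05, where 11.7% of all tested genes rose, and 1 fell, where 9.77% of all genes fell. The median log2 difference (stages 13-16 against 10-12) was 2.76 over the members and 0.07 over all genes. The members that rose were Act57B, RyR and SERCA, all 7 troponin and tropomyosin genes tested, all 4 genes of thin filament ends and actin binding, all 3 giant protein genes tested, 3 of 5 thick filament genes and 4 of 6 Z-disc genes. The count depended on 1 early library and on the clustering: 5 members were called without replicate 2 of stages 10-12, and 5 with all libraries under a coarser clustering (resolution 1 in place of 2). No member was called after free RNA was subtracted, taken as the profile of the droplets set aside scaled to the neural markers seen in muscle. By this estimate free RNA made up 75.0% and 63.8% of the UMIs of somatic muscle early and 27.5% and 32.3% late. In FCMs it was 25.6% and 27.5% early and 41.1% and 38.3% late. In the fit after subtraction, 18 of 28 members had an unadjusted p under 0.05 by edgeR and the median log2 difference was 2.28. Here and below, counts of members at an unadjusted p stand without the share of all genes, which is not given. DESeq2 called 23 on the unsubtracted counts. Neural markers (5 genes, summed), which should be low in muscle, were at 427 and 250 CPM in early and 116 and 246 CPM in late somatic muscle, against 3120 to 4307 CPM in the central nervous system (CNS), and their part in the result was not tested.

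**Figure D2:**
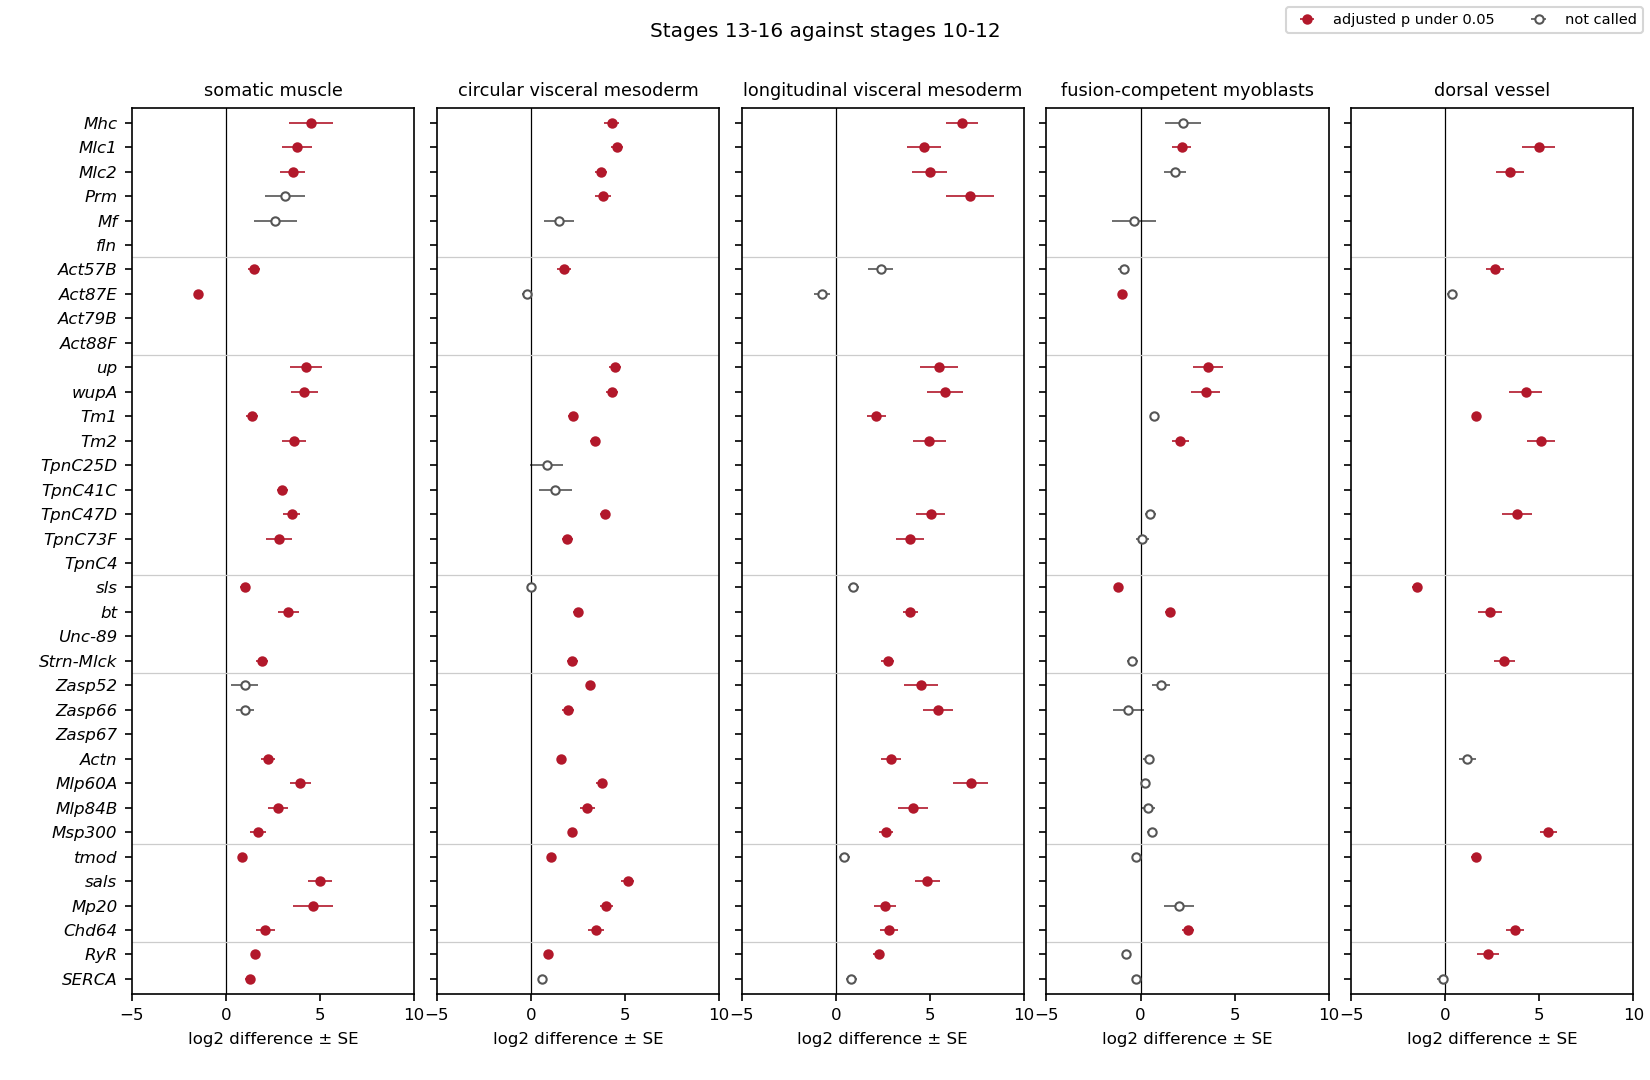
Log2 difference (stages 13-16 against 10-12) with its standard error for each member in somatic muscle, FCMs, CVM, LVM and the dorsal vessel, with filled points at an adjusted p under 0.05. Most filled points of the muscle panels lie to the right of 0, while Act87E in somatic muscle and Act87E and sls in FCMs lie to the left.

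Mhc (FBgn0264695, chr2L:16766566-16788766) encodes the muscle myosin heavy chain, the motor of the thick filament. In somatic muscle it was at 45.9 and 1.15 CPM at stages 10-12 and 275 and 725 CPM at stages 13-16. Both late libraries exceeded both early ones, but the early libraries differed widely, and the higher early value was at the level of that library's droplets set aside, 49.3 CPM. Mhc rose in somatic muscle by log2 4.52 ± 1.17, adjusted p = 0.045. Mhc in CVM was at 68.3 and 25.2 CPM at stages 10-12 and 978 and 922 CPM at stages 13-16, and in LVM at 9.93 and 6.08 CPM at stages 10-12 and 262 and 1431 CPM at stages 13-16. The groups did not overlap in either, and CVM had the tightest replicates late. The differences were 4.29 ± 0.39 (adjusted p = 2.7e-04) in CVM and 6.72 ± 0.84 (adjusted p = 0.008) in LVM, the last from sums holding 10 and 4 UMIs of Mhc early. In FCMs Mhc stayed near the background at 5.34 and 0.190 CPM at stages 10-12 and 4.25 and 27.8 CPM at stages 13-16, a difference of 2.27 ± 0.97 (adjusted p = 0.18).

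Mlc1 (FBgn0002772, chr3R:27657078-27660177), the alkali light chain, was at 161 and 24.4 CPM at stages 10-12 and 752 and 1506 CPM at stages 13-16 in somatic muscle. Mlc2 (FBgn0002773, chr3R:30171438-30174551), the regulatory light chain, was at 222 and 66.2 CPM at stages 10-12 and 763 and 2326 CPM at stages 13-16. Neither gene's stages overlapped, and for both, early replicate 1 exceeded replicate 2. The rises were 3.76 ± 0.80 (adjusted p = 0.029) for Mlc1 and 3.53 ± 0.67 (adjusted p = 0.023) for Mlc2. In CVM Mlc1 was at 67.7 and 55.6 CPM at stages 10-12 and 1113 and 1915 CPM at stages 13-16 and rose by log2 4.58 ± 0.30, adjusted p = 1.5e-04. In LVM Mlc1 was at 20.9 and 116 CPM at stages 10-12 and 657 and 2727 CPM at stages 13-16 and rose by log2 4.71 ± 0.90, adjusted p = 0.017. Mlc2 was the most abundant of the thick filament genes in the gut muscles. CVM held Mlc2 at 319.7 and 203 CPM at stages 10-12 and 2782 and 4345 CPM at stages 13-16 and LVM at 41.7 and 178 CPM at stages 10-12 and 1065 and 5728 CPM at stages 13-16. Late libraries were above early ones throughout, by log2 3.74 ± 0.32 (adjusted p = 2.3e-04) in CVM, and the rise in LVM was called too (adjusted p = 0.017). FCMs held Mlc1 at 10.6 and 4.93 CPM at stages 10-12 and 18.4 and 61.3 CPM at stages 13-16, a rise of 2.19 ± 0.49 (adjusted p = 0.037) to levels below those of the droplets set aside, 76.4 and 237 CPM.

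Prm (FBgn0003149, chr3L:8732858-8745310) encodes paramyosin, the core rod of invertebrate thick filaments. In CVM it was at 15.7 and 4.35 CPM at stages 10-12 and 112 and 225 CPM at stages 13-16, with no overlap, and rose by log2 3.82 ± 0.43, adjusted p = 4.7e-04. In LVM Prm had 2, 0, 39 and 898 UMIs in the 4 libraries. Its fitted rise there was called (adjusted p = 0.015), but the early sums held too few UMIs for a fold change. In somatic muscle Prm was at 11 and 0.575 CPM at stages 10-12 and 14.5 and 87.8 CPM at stages 13-16, where early replicate 1 was close to late replicate 1, and the difference of 3.13 ± 1.07 (adjusted p = 0.087) did not pass. Mf (FBgn0038294, chr3R:15170625-15181510), the thick filament protein myofilin, was at 8.98 and 0 CPM at stages 10-12 and 8.52 and 47.0 CPM at stages 13-16 in somatic muscle. The early and late replicates 1 were alike, though the early one lay below that library's droplets set aside, 36.8 CPM. The difference was 2.60 ± 1.14 (adjusted p = 0.15). CVM had little of it, 2.17 and 0 CPM at stages 10-12 and 2.46 and 6.17 CPM at stages 13-16. The gene fln (FBgn0005633, chr3L:19989551-19991220), flightin of the indirect flight muscle, had 71 UMIs in all barcodes and was at most 1.79 CPM in CVM and 0.321 CPM in somatic muscle.

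Act57B (FBgn0000044, chromosome arm 2R) and Act87E (FBgn0000046, chr3R:13425983-13428375) are the muscle actins of the embryo and larva. At stages 10-12 FCMs had more of each than any other class present in both libraries, Act57B at 4095 and 2887 CPM and Act87E at 1602 and 1239 CPM. In somatic muscle Act57B was at 1851 and 1371 CPM at stages 10-12 and 3042 and 5389 CPM at stages 13-16. The late libraries were higher than the early ones, by log2 1.48 ± 0.30, adjusted p = 0.026. Act87E went the other way in somatic muscle, at 712 and 527 CPM at stages 10-12 and 188 and 219 CPM at stages 13-16. Late values were less than every early value, and Act87E was the 1 member that fell there, by log2 -1.48 ± 0.19, adjusted p = 0.011. In FCMs Act87E was at 1602 and 1239 CPM at stages 10-12 and 637 and 938 CPM at stages 13-16, a fall of log2 -0.98 ± 0.24, adjusted p = 0.047. Act57B there was at 4095 and 2887 CPM at stages 10-12 and 1895 and 2155 CPM at stages 13-16, a difference of -0.89 ± 0.28 (adjusted p = 0.094) that did not pass although the stages did not overlap. In CVM Act57B was at 1460 and 1118 CPM at stages 10-12 and 2573 and 6487 CPM at stages 13-16 and rose by log2 1.77 ± 0.38, adjusted p = 0.0083. Act87E in CVM was at 506 and 439.9 CPM at stages 10-12 and 316 and 509 CPM at stages 13-16, with overlapping stages and a difference of -0.23 ± 0.23 (adjusted p = 0.5).

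The balance of the muscle actins was not the same in every class. Of the UMIs of the 4 muscle actin genes, Act57B took 72.2% and 72.2% early and 94.2% and 96.1% late in somatic muscle. The widest exact 95% interval of these, in early replicate 2, was 71.1% to 73.3%. In FCMs it took 71.9% and 70.0% early and 74.8% and 69.7% late, where the stages overlapped. In CVM the share was 74.3% and 71.8% early and 89% and 92.7% late, and in LVM 52.8% and 61.9% early and 88.3% and 93.0% late. Late shares were above early ones in somatic muscle and in both visceral classes. In muscle precursors Act57B took 34.2% and 38.5%, so Act87E was the larger part there. The dorsal vessel was the other class led by Act87E, with Act57B at 13.4% and 4.57% early and 34.6% and 36.8% late. In non-muscle cells at stages 13-16 the share was 82.5% and 88.0%, close to the 83.0% and 88.3% of the droplets set aside. The coding sequences of these actins are nearly identical, only uniquely mapped reads were counted, and whether reads were split correctly between them could not be checked here. Act79B (FBgn0000045, chr3L:21985210-21987190) and Act88F (FBgn0000047, chr3R:15439969-15442177), actins of adult leg and flight muscle, had 288 and 126 UMIs in all barcodes, and neither exceeded 1.55 CPM in somatic muscle.

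**Figure D3:**
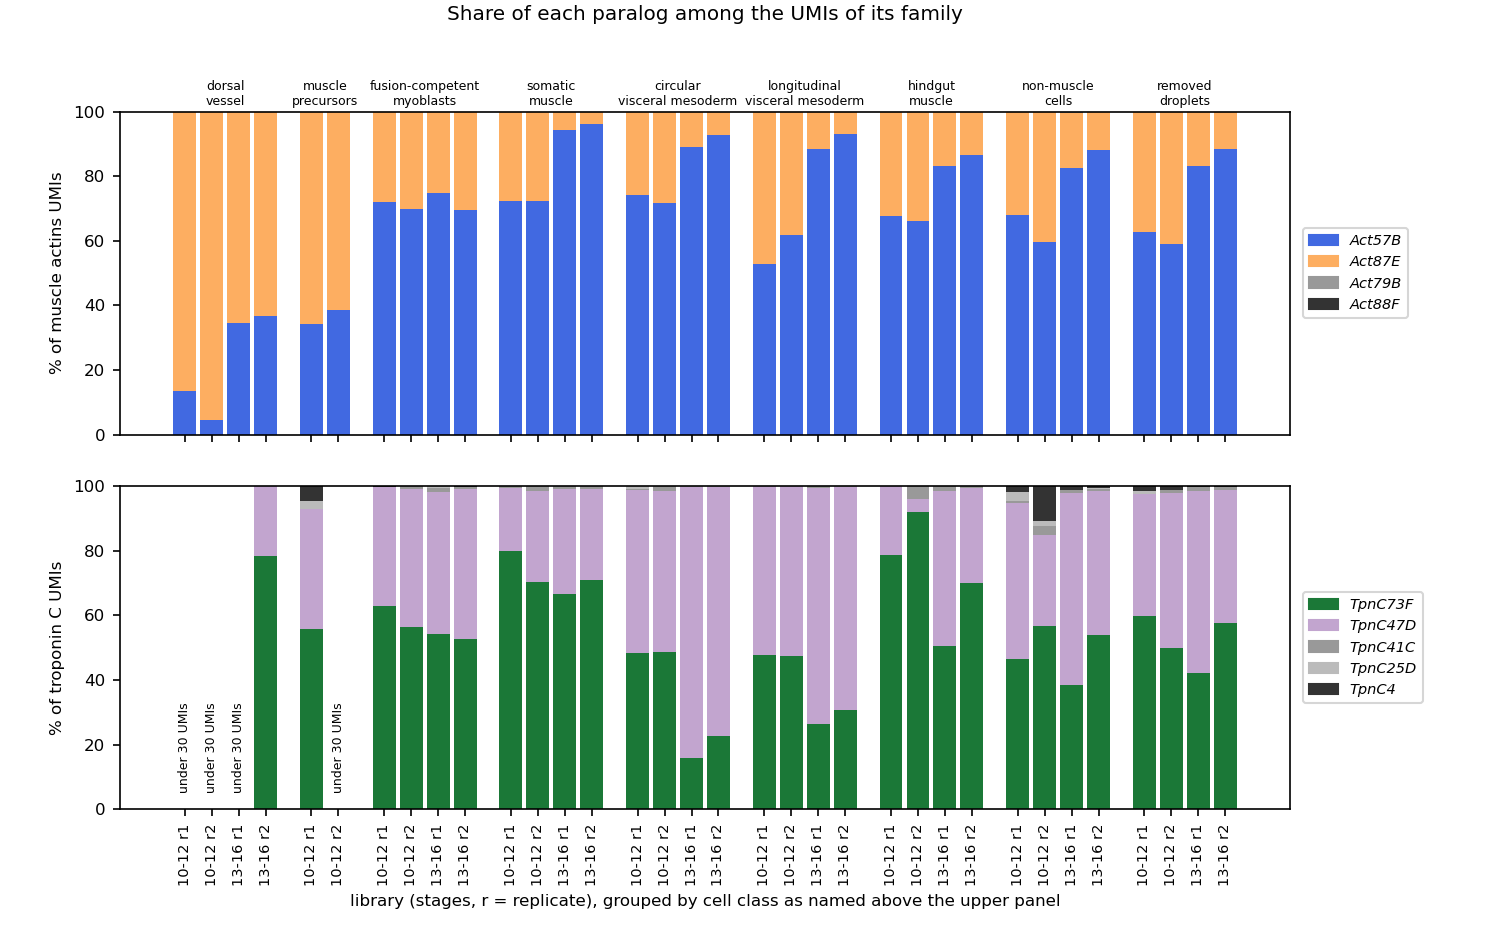
Share of the UMIs of the muscle actin family (upper) and of the troponin C family (lower) taken by each gene, by cell class and library. Act57B takes at least 88.3% in late somatic muscle, CVM and LVM, and TpnC73F leads in somatic muscle where TpnC47D leads in late CVM and LVM.

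The gene up (FBgn0004169, chrX:13593474-13602578) encodes troponin T, which ties troponin to tropomyosin. In somatic muscle up was at 63.5 and 11.8 CPM at stages 10-12 and 286 and 1060 CPM at stages 13-16. The late libraries were higher, by log2 4.26 ± 0.86, adjusted p = 0.026. It was at 73.7 and 48.7 CPM at stages 10-12 and 1029 and 1746 CPM at stages 13-16 in CVM and at 11.9 and 57.8 CPM at stages 10-12 and 406 and 2532 CPM at stages 13-16 in LVM. The stages did not overlap in either class, with rises of 4.45 ± 0.32 (adjusted p = 1.5e-04) and 5.49 ± 0.99 (adjusted p = 0.015). In FCMs up was at 3.34 and 0.569 CPM at stages 10-12 and 8.51 and 50.0 CPM at stages 13-16, a rise of 3.60 ± 0.81 (adjusted p = 0.037) with late values under those of the droplets set aside, 49.8 and 187 CPM. The gene wupA (FBgn0283471, chrX:18105568-18116922) encodes troponin I, the inhibitory subunit. Somatic muscle held wupA at 62.3 and 14.7 CPM at stages 10-12 and 319 and 954 CPM at stages 13-16, a rise of log2 4.15 ± 0.72, adjusted p = 0.019. CVM held it at 59.3 and 62.6 CPM at stages 10-12 and 886 and 1579 CPM at stages 13-16 and LVM at 9.93 and 53.2 CPM at stages 10-12 and 531 and 2725 CPM at stages 13-16. It rose by 4.31 ± 0.30 (adjusted p = 1.5e-04) and 5.79 ± 0.96 (adjusted p = 0.013), again with no overlap. In FCMs wupA was at 3.34 and 0.379 CPM at stages 10-12 and 9.22 and 41.8 CPM at stages 13-16 and rose by 3.46 ± 0.78 (adjusted p = 0.037), below the late droplets set aside at 38.6 and 149 CPM.

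Tm1 (FBgn0003721, chr3R:15278220-15308779) and Tm2 (FBgn0004117, chr3R:15310193-15315197) are neighbouring tropomyosin genes, and Tm1 also makes cytoskeletal forms. Tm1 was widely expressed, at 473 and 406 CPM at stages 10-12 and 462 and 552 CPM at stages 13-16 in non-muscle cells and, of the classes present in both early libraries, highest in the amnioserosa (857 and 648 CPM). The pharyngeal muscle cells of replicate 1 held it at 3746 CPM. In somatic muscle Tm1 was at 412 and 279 CPM at stages 10-12 and 534 and 1139 CPM at stages 13-16, a rise of 1.37 ± 0.32 (adjusted p = 0.037). Its rise in CVM, from 406 and 387 CPM to 1573 and 2217 CPM, was 2.23 ± 0.25 (adjusted p = 4.3e-04). Tm2 was more restricted. In somatic muscle Tm2 was at 58.7 and 16.4 CPM at stages 10-12 and 219.5 and 637 CPM at stages 13-16, with no overlap, and rose by log2 3.61 ± 0.65, adjusted p = 0.021. CVM held Tm2 at 171 and 143 CPM at stages 10-12 and 1294 and 2070 CPM at stages 13-16, a rise of 3.39 ± 0.27 (adjusted p = 1.9e-04), and LVM at 26.8 and 85.2 CPM at stages 10-12 and 496 and 2867 CPM at stages 13-16, a rise of 4.97 ± 0.88 (adjusted p = 0.015). In FCMs Tm2 was at 7.82 and 3.79 CPM at stages 10-12 and 14.9 and 41.2 CPM at stages 13-16 and rose by 2.10 ± 0.45 (adjusted p = 0.033), below its late level in the droplets set aside, 51.5 and 138 CPM. Of the tropomyosin UMIs, Tm2 took 12.5% and 5.56% early and 29.1% and 35.9% late in somatic muscle and 29.6% and 27.1% early and 45.1% and 48.3% late in CVM. In the CNS the share was 1.66% and 0.220% early and 5.83% and 7.14% late.

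Troponin C is the calcium sensor of the thin filament. Of its 5 genes, TpnC47D (FBgn0010423, chromosome arm 2R) and TpnC73F (FBgn0010424, chr3L:17046063-17048390) made up nearly all UMIs. Somatic muscle had TpnC73F at 489 and 99.8 CPM at stages 10-12 and 1344 and 2357 CPM at stages 13-16 and TpnC47D at 118 and 40.3 CPM at stages 10-12 and 653 and 944 CPM at stages 13-16. Late libraries were above early ones for both, by log2 2.81 ± 0.67 (adjusted p = 0.038) and 3.48 ± 0.45 (adjusted p = 0.011). In CVM TpnC47D was at 152 and 93.9 CPM at stages 10-12 and 1786 and 2027 CPM at stages 13-16, a rise of 3.94 ± 0.29 (adjusted p = 1.5e-04). TpnC73F rose less there, from 145 and 91.3 CPM to 341 and 590.2 CPM, by 1.94 ± 0.28 (adjusted p = 0.0013). In LVM TpnC47D was at 22.8 and 94.3 CPM at stages 10-12 and 905 and 2700 CPM at stages 13-16 and TpnC73F at 20.9 and 85.2 CPM at stages 10-12 and 328 and 1201 CPM at stages 13-16. They rose by 5.04 ± 0.76 (adjusted p = 0.0099) and 3.95 ± 0.76 (adjusted p = 0.017). TpnC73F took 80.1% and 70.2% early and 66.7% and 70.9% late of the troponin C UMIs of somatic muscle. TpnC47D took 50.5% and 50.0% early and 83.7% and 77.2% late in CVM and 52.3% and 52.5% early and 73% and 69.0% late in LVM. TpnC73F thus led in both late sums of the body wall muscle, and TpnC47D in both late sums of CVM and of LVM. Late hindgut muscle went the other way, with TpnC73F at 329 and 847 CPM and TpnC47D at 315 and 357 CPM.

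TpnC41C (FBgn0013348, chromosome arm 2R), known from adult muscle, was scarce but led by somatic muscle, at 3.39 and 2.01 CPM at stages 10-12 and 16.9 and 23.6 CPM at stages 13-16. It rose by log2 2.99 ± 0.30, adjusted p = 0.0091, and every other named class at stages 13-16 was below both of these late values. In CVM TpnC41C was at 0.813 and 2.61 CPM at stages 10-12 and 4.70 and 2.01 CPM at stages 13-16. TpnC25D (FBgn0031692, chr2L:5216701-5219053) and TpnC4 (FBgn0033027, chromosome arm 2R), a troponin C of flight muscle, had 319 and 429 UMIs in all barcodes. TpnC25D in CVM was at 2.71 and 0 CPM at stages 10-12 and 1.34 and 5.31 CPM at stages 13-16, and in somatic muscle at 0 and 0 CPM at stages 10-12 and 0.482 and 0.282 CPM at stages 13-16. TpnC4 reached at most 0.895 CPM in somatic muscle and CVM.

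The gene sls (FBgn0086906, chr3L:2039681-2115611) encodes Sallimus, the titin-like protein that links thick filaments to the Z-disc. It was abundant early, at 1240 and 991 CPM in FCMs and 1040 and 703 CPM in somatic muscle, and the 2 classes then diverged. In FCMs sls ended at 543 and 507 CPM, a fall of log2 -1.18 ± 0.25, adjusted p = 0.032. In somatic muscle it reached 1415 and 1744 CPM, a rise of log2 0.98 ± 0.23, adjusted p = 0.035. Late and early libraries did not overlap in either class. In CVM sls was at 571 and 539.9 CPM at stages 10-12 and 495 and 644 CPM at stages 13-16, with overlapping stages and a difference of 0.02 ± 0.21 (adjusted p = 0.96).

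The gene bt (FBgn0005666, chr4:724400-776474) encodes Projectin, the titin-like protein and kinase of the myosin filament. It was at 99.8 and 25.9 CPM at stages 10-12 and 393 and 741 CPM at stages 13-16 in somatic muscle, with no overlap, and rose by log2 3.31 ± 0.57, adjusted p = 0.019. CVM held bt at 135 and 132 CPM at stages 10-12 and 819.5 and 696 CPM at stages 13-16, a rise of 2.51 ± 0.25 (adjusted p = 3.1e-04) that turned to log2 -0.24 under a coarser clustering. LVM held bt at 58.6 and 53.2 CPM at stages 10-12 and 480.2 and 1176 CPM at stages 13-16, a rise of 3.97 ± 0.42 (adjusted p = 0.0048). FCMs held bt at 9.82 and 5.69 CPM at stages 10-12 and 22.0 and 28.6 CPM at stages 13-16, a rise of 1.56 ± 0.29 (adjusted p = 0.021) that stayed under the late level of the droplets set aside, 42.4 and 121 CPM. Strn-Mlck (FBgn0265045, chromosome arm 2R), a giant protein with a myosin light chain kinase domain, was at 258 and 116 CPM at stages 10-12 and 627 and 622 CPM at stages 13-16 in somatic muscle and 144 and 143 CPM at stages 10-12 and 783 and 531 CPM at stages 13-16 in CVM. It rose in both, by 1.90 ± 0.33 (adjusted p = 0.019) and 2.21 ± 0.29 (adjusted p = 8.4e-04), with no overlap. Unc-89 (FBgn0053519, chromosome arm 2R), obscurin of the M-line, had 312 UMIs in all barcodes and was at most 1.20 CPM in somatic muscle.

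Actn (FBgn0000667, chrX:2023822-2042311) encodes alpha-actinin, the actin crosslinker of the Z-disc. In somatic muscle it was at 33.9 and 20.7 CPM at stages 10-12 and 72.9 and 170.3 CPM at stages 13-16, a rise of log2 2.23 ± 0.37, adjusted p = 0.017 with no overlap. CVM was higher at both stages, at 85.3 and 90.4 CPM at stages 10-12 and 229.7 and 312 CPM at stages 13-16, and rose by 1.61 ± 0.21 (adjusted p = 8.6e-04). CNS cells also held Actn, at 68.5 and 79.3 CPM at stages 10-12 and 68.2 and 80.6 CPM at stages 13-16. Zasp52 (FBgn0265991, chromosome arm 2R) and Zasp66 (FBgn0035917, chr3L:8624371-8638813) encode PDZ-domain proteins of the Z-disc. Zasp52 was highest late in CVM and LVM, though LVM replicate 1 lay below the non-muscle gut primordium (133 and 79.2 CPM) and gut endoderm (59.0 and 60.5 CPM). Early it was highest, among classes present in both libraries, in the amnioserosa (191 and 77.8 CPM). In CVM it was at 20.1 and 20.9 CPM at stages 10-12 and 166 and 196 CPM at stages 13-16, and in LVM at 10.9 and 1.52 CPM at stages 10-12 and 42.6 and 264 CPM at stages 13-16. It rose by 3.15 ± 0.23 (adjusted p = 1.5e-04) and 4.53 ± 0.92 (adjusted p = 0.02), the one in LVM from 11 and 1 early UMIs. In somatic muscle the stages overlapped, at 8.18 and 4.89 CPM at stages 10-12 and 4.07 and 21.1 CPM at stages 13-16, a difference of 0.98 ± 0.71 (adjusted p = 0.36). Zasp66 was highest late in LVM, at 1.99 and 6.08 CPM at stages 10-12 and 60.6 and 244 CPM at stages 13-16, which rose by log2 5.43 ± 0.80, adjusted p = 0.0095 from 2 and 4 early UMIs. In CVM Zasp66 was at 10.3 and 6.08 CPM at stages 10-12 and 35.4 and 33.0 CPM at stages 13-16, and in somatic muscle at 10.6 and 3.16 CPM at stages 10-12 and 9.70 and 16.6 CPM at stages 13-16, where the stages overlapped. Zasp67 (FBgn0036044, chr3L:9787933-9797687) had 9 UMIs in all barcodes and could not be assessed.

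Mlp60A (FBgn0259209, chromosome arm 2R) and Mlp84B (FBgn0014863, chr3R:7112850-7117732) encode muscle LIM proteins. Mlp60A was at 132 and 38.5 CPM at stages 10-12 and 861 and 1521 CPM at stages 13-16 in somatic muscle, with no overlap, and rose by log2 3.95 ± 0.55, adjusted p = 0.013. In CVM it was at 148 and 82.6 CPM at stages 10-12 and 1423 and 1742 CPM at stages 13-16, and in LVM at 5.96 and 16.7 CPM at stages 10-12 and 446 and 2567 CPM at stages 13-16. The rises were 3.76 ± 0.30 (adjusted p = 2.0e-04) and 7.18 ± 0.93 (adjusted p = 0.0081), the one in LVM from 6 and 11 early UMIs. FCMs stayed between 41.0 and 75.2 CPM, a difference of 0.26 ± 0.20 (adjusted p = 0.46). Mlp84B was at 22.8 and 12.1 CPM at stages 10-12 and 51.3 and 175 CPM at stages 13-16 in somatic muscle, 23.8 and 15.7 CPM at stages 10-12 and 96.3 and 243 CPM at stages 13-16 in CVM, and 16.9 and 12.2 CPM at stages 10-12 and 65.4 and 432 CPM at stages 13-16 in LVM. It rose in all of them, by 2.76 ± 0.54 (adjusted p = 0.025), 3.00 ± 0.39 (adjusted p = 8.2e-04) and 4.13 ± 0.80 (adjusted p = 0.018). Msp300 (FBgn0261836, chr2L:5100877-5207002), the fly nesprin that anchors muscle nuclei and links to the Z-disc, was at 315 and 112 CPM at stages 10-12 and 499.9 and 742 CPM at stages 13-16 in somatic muscle and 114 and 104 CPM at stages 10-12 and 492 and 507 CPM at stages 13-16 in CVM. It rose by 1.69 ± 0.41 (adjusted p = 0.04) and 2.20 ± 0.21 (adjusted p = 2.9e-04). Its highest late level was outside muscle, in oenocytes (546 and 1471 CPM), whose values overlapped those of late somatic muscle.

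The gene sals (FBgn0051374, chr3R:11437547-11451791), required for thin filament elongation, had few UMIs in early somatic and visceral muscle and the largest fitted rise of the members in somatic muscle. The early pharyngeal muscle cells of replicate 1 held it at 272 CPM. In somatic muscle sals was at 2.40 and 0.288 CPM at stages 10-12 and 26.5 and 63.1 CPM at stages 13-16, from 12 and 1 UMIs early, and rose by log2 5.01 ± 0.64, adjusted p = 0.011. CVM held sals at 1.63 and 1.74 CPM at stages 10-12 and 47.9 and 70.2 CPM at stages 13-16 and LVM at 4.96 and 3.04 CPM at stages 10-12 and 54.0 and 177 CPM at stages 13-16. The rises were 5.14 ± 0.36 (adjusted p = 1.5e-04) and 4.87 ± 0.65 (adjusted p = 0.0085), with no overlap. The gene tmod (FBgn0082582, chr3R:30532607-30578905) encodes tropomodulin, the cap of thin filament pointed ends, and was already present early. It was at 193 and 139 CPM at stages 10-12 and 230.1 and 326 CPM at stages 13-16 in somatic muscle and 265 and 242 CPM at stages 10-12 and 546 and 534 CPM at stages 13-16 in CVM. The rises were small, 0.86 ± 0.19 (adjusted p = 0.032) and 1.09 ± 0.21 (adjusted p = 0.0054), and no stages overlapped.

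Mp20 (FBgn0002789, chromosome arm 2R) encodes a calponin-like muscle protein. It stood out by class: LVM held Mp20 at 158 and 439.6 CPM at stages 10-12 and 955 and 2492 CPM at stages 13-16, above every other named class at both stages except the pharyngeal muscle cells. It rose in LVM by log2 2.60 ± 0.59, adjusted p = 0.027. In CVM Mp20 was at 15.7 and 26.9 CPM at stages 10-12 and 242 and 419 CPM at stages 13-16, and in somatic muscle at 7.38 and 0 CPM at stages 10-12 and 33.8 and 153 CPM at stages 13-16. Their rises were 4.02 ± 0.35 (adjusted p = 2.3e-04) and 4.61 ± 1.07 (adjusted p = 0.037), with no overlap. Chd64 (FBgn0035499, chr3L:4114289-4122388), also calponin-like, was lower in somatic muscle, CVM and FCMs than in non-muscle cells at both stages. Its highest late level was in gut endoderm, 831 and 1624 CPM, and non-muscle cells had 61.5 and 41.1 CPM at stages 10-12 and 142 and 325 CPM at stages 13-16. Somatic muscle was at 11.6 and 8.34 CPM at stages 10-12 and 19.8 and 61.5 CPM at stages 13-16, CVM at 6.77 and 5.22 CPM at stages 10-12 and 41.2 and 98.3 CPM at stages 13-16, and FCMs at 6.29 and 5.31 CPM at stages 10-12 and 22.7 and 50.6 CPM at stages 13-16. It rose in all of these, by 2.09 ± 0.49 (adjusted p = 0.037), 3.45 ± 0.42 (adjusted p = 6.3e-04) and 2.52 ± 0.33 (adjusted p = 0.0092), but every muscle value lay below the droplets set aside of the same library (41.1 and 24.5 CPM at stages 10-12 and 109 and 283 CPM at stages 13-16).

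RyR (FBgn0011286, chromosome arm 2R) encodes the ryanodine receptor, the calcium release channel, and SERCA (FBgn0263006, chromosome arm 2R) the pump that returns calcium to the store. RyR was present early in FCMs and somatic muscle, at 140.3 and 106 CPM and 119 and 81.1 CPM. Somatic muscle reached 248 and 274 CPM, a rise of log2 1.51 ± 0.19, adjusted p = 0.011 with no overlap. FCMs were at 84.7 and 70.1 CPM late, a difference of -0.76 ± 0.24 (adjusted p = 0.09). In CVM RyR was at 89.7 and 82.6 CPM at stages 10-12 and 142 and 185 CPM at stages 13-16, a rise of 0.90 ± 0.20 (adjusted p = 0.0091). SERCA was expressed broadly, at 196 and 158 CPM at stages 10-12 and 150 and 199.5 CPM at stages 13-16 in non-muscle cells. In somatic muscle SERCA was at 264 and 153 CPM at stages 10-12 and 351 and 569 CPM at stages 13-16, a rise of 1.26 ± 0.26 (adjusted p = 0.029) with no overlap. In CVM it was at 154 and 140 CPM at stages 10-12 and 179 and 272 CPM at stages 13-16, a difference of 0.59 ± 0.21 (adjusted p = 0.064) that did not pass.

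Counted over the list, most members rose in the gut muscles as well. In CVM (248 and 78 cells early, 799 and 714 late) 24 of 30 members tested rose, where 19.3% of all genes rose, and the median log2 difference was 2.37 (0.05 over all genes). The members that rose were all 6 Z-disc genes tested, all 4 genes of thin filament ends and actin binding, 6 of 8 troponin and tropomyosin genes, 4 of 5 thick filament genes, 2 of 3 giant protein genes, Act57B and RyR. In LVM (102 and 53 cells early, 221 and 247 late) 22 of 27 members rose, where 8.89% of all genes rose, with a median of 3.97 (0.02 over all genes). The LVM count rested on few early cells: 10 members were called without replicate 1 and 8 without replicate 2 of stages 10-12. After subtraction of free RNA, 20 of 26 members tested were called in CVM, and none of 26 in LVM by edgeR, where 20 of 26 had an unadjusted p under 0.05 and the median was 4.34. By the same estimate free RNA made up 49.0% and 47.1% early and 65.3% and 53.1% late of the UMIs of CVM, above its late share in somatic muscle. In LVM it was 55.0% and 41.6% early and 54.6% and 39.8% late.

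The FCMs did not follow. Of 26 members tested in FCMs (815 and 254 cells early, 313 and 475 late) 6 rose (up, wupA, Mlc1, Tm2, bt and Chd64), where 8.36% of all genes rose, and 2 fell (Act87E and sls), where 2.15% of all genes fell. The median was 0.47 (-0.01 over all genes). The 6 that rose were all below the late droplets set aside in both libraries, and after subtraction of free RNA 1 member was called and the median was -0.99. Without replicate 2 of stages 10-12, 5 members were called, and without replicate 2 of stages 13-16, 3. FCM clusters of the 2 stages differed in their leading genes: Act57B, Act87E and sls were among the leading genes of the early clusters, and lmd, a transcription factor gene of FCMs, and Him, an inhibitor of muscle differentiation, led the larger late cluster.

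Somatic muscle and FCMs were set side by side at each stage. At stages 10-12, 22 of 29 members tested were higher in somatic muscle, where 15.4% of all genes were, and 3 (Act57B, Act87E and sls) were lower, where 11.8% of all genes were. At stages 13-16, 27 were higher and 1 (Act87E) was lower, with 23.7% and 22.6% of all genes. The difference between these contrasts was itself tested: it was larger late for 19 members and smaller for 1 (Act87E), with 18.3% and 17.9% of all genes. For Mlp60A the contrast moved from 0.60 ± 0.23 (adjusted p = 0.087) to 4.39 ± 0.24 (adjusted p = 2.5e-06), a difference of 3.79 ± 0.32 (adjusted p = 5.7e-05). For Act57B it moved from -1.16 ± 0.14 (adjusted p = 4.4e-04) to 1.20 ± 0.14 (adjusted p = 1.4e-04), and for sls from -0.42 ± 0.11 (adjusted p = 0.02) to 1.79 ± 0.11 (adjusted p = 5.1e-06), so that both changed sides. After subtraction of free RNA these counts of calls were 3, 0 and 1 by edgeR, with 9, 27 and 9 of 27 members at an unadjusted p under 0.05. The members' median differences were then 2.86, 9.20 and 3.96, against 1.50, 3.92 and 1.77 before. The early count was 12 without replicate 1 of stages 10-12.

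Against non-muscle cells, somatic muscle was higher for 23 of 33 members tested at stages 10-12, where 14.6% of all genes were higher, and lower for 2 (Zasp52 and Chd64), where 16.3% were lower. At stages 13-16 it was higher for 27 and lower for 1 (Chd64), with 21.9% and 39.2% of all genes. CVM was higher than non-muscle cells for 24 of 32 members early and lower for 2 (Mf and Chd64), with 15.4% and 20.5% of all genes, and late for 29 and 1 (Chd64), with 16.2% and 34.8%. FCMs were higher for 9 of 31 members and lower for 9 early, with 18.3% and 33.2% of all genes, and late for 4 (Act57B, Act87E, sls and RyR) and 8, with 23.6% and 28.2%. The late FCM split was 14 higher and 4 lower when predicted doublets were kept, and 17 and 6 with cells of at least 1000 UMIs. Median differences of all genes in these contrasts ranged from -0.36 to -0.04. Among the largest early contrasts were Act57B and RyR in FCMs, 5.54 ± 0.16 (adjusted p = 1.8e-33) and 5.54 ± 0.19 (adjusted p = 2.5e-30), and TpnC73F in somatic muscle, 5.66 ± 0.15 (adjusted p = 1.2e-06). In each fit edgeR pools its estimate of the spread over genes, so these p-values do not rest on the agreement of the libraries alone. Their sizes are not comparable between the contrasts. Chd64 in somatic muscle was at -2.11 ± 0.16 (adjusted p = 7.3e-05) early and -2.28 ± 0.13 (adjusted p = 9.0e-06) late.

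The circular gut muscle and the body wall muscle were compared directly. At stages 10-12, 4 of 30 members tested were higher in CVM, a share near the 11.4% of all genes that were higher, and 7 were lower, where 16.8% were lower. At stages 13-16, 14 were higher and 6 lower, with 20.8% and 25.5% of all genes. The members higher in CVM at both stages were Tm2, Mlc2, TpnC47D and Actn. Tm2 differed by 2.05 ± 0.33 (adjusted p = 0.0042) early and 1.78 ± 0.29 (adjusted p = 0.0017) late, and Mlc2 by 0.87 ± 0.27 (adjusted p = 0.047) and 1.04 ± 0.25 (adjusted p = 0.012). TpnC47D differed by 0.58 ± 0.18 (adjusted p = 0.046) and 0.93 ± 0.16 (adjusted p = 0.0021). The early differences of Mlc2 and TpnC47D changed sign, to log2 -0.71 and -0.84, when the members were kept among the clustering genes. Other members higher late were led by Zasp52 at 3.79 ± 0.43 (adjusted p = 2.7e-04), TpnC25D at 2.71 ± 0.72 (adjusted p = 0.021), Mp20 at 1.78 ± 0.47 (adjusted p = 0.016), Prm at 1.75 ± 0.34 (adjusted p = 0.0041), Zasp66 at 1.06 ± 0.24 (adjusted p = 0.0076) and up at 0.93 ± 0.33 (adjusted p = 0.049). The members lower in CVM late were TpnC41C at -3.02 ± 0.41 (adjusted p = 6.8e-04), Mf at -2.94 ± 0.31 (adjusted p = 3.5e-04), TpnC73F at -2.33 ± 0.27 (adjusted p = 2.9e-04), sls at -1.82 ± 0.12 (adjusted p = 3.4e-05), SERCA at -1.37 ± 0.14 (adjusted p = 1.6e-04) and RyR at -1.03 ± 0.13 (adjusted p = 4.0e-04). Early, Act57B (-0.47 ± 0.13, adjusted p = 0.035), Act87E (-0.53 ± 0.14, adjusted p = 0.027) and Msp300 (-1.01 ± 0.27, adjusted p = 0.027) were lower, as were sls, TpnC73F, SERCA and Mf. Early Mf was absent from replicate 2 in both classes, and in replicate 1 both lay below the droplets set aside, 36.8 CPM.

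Tested for a change of the contrast between stages, 3 members moved toward CVM, where 5.32% of all genes did, and 1 moved away, where 5.96% did. They were Act87E (1.18 ± 0.20, adjusted p = 0.016), Tm1 (0.85 ± 0.22, adjusted p = 0.049) and Chd64 (1.37 ± 0.31, adjusted p = 0.033) toward CVM, and sls (-1.04 ± 0.16, adjusted p = 0.013) away. This small count moved with the library left out: 2 members were called without replicate 1 of stages 10-12 and 10 without any other library. It was 12 under coarser clustering, 10 with no filter on low counts and 0 after subtraction of free RNA. The early contrast moved as well, from 11 called: 22 members were called with no filter on low counts, 22 under coarser clustering, and 24 and 22 without replicate 1 or replicate 2 of stages 13-16. Under coarser clustering the early differences of Mf, Msp300 and Act87E changed sign. After subtraction of free RNA no member was called early or late by edgeR, with 12 and 15 of 28 at an unadjusted p under 0.05. The members' median difference was then 0.0018 early and 1.20 late, against 0.07 and 0.57 before.

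**Figure D4:**
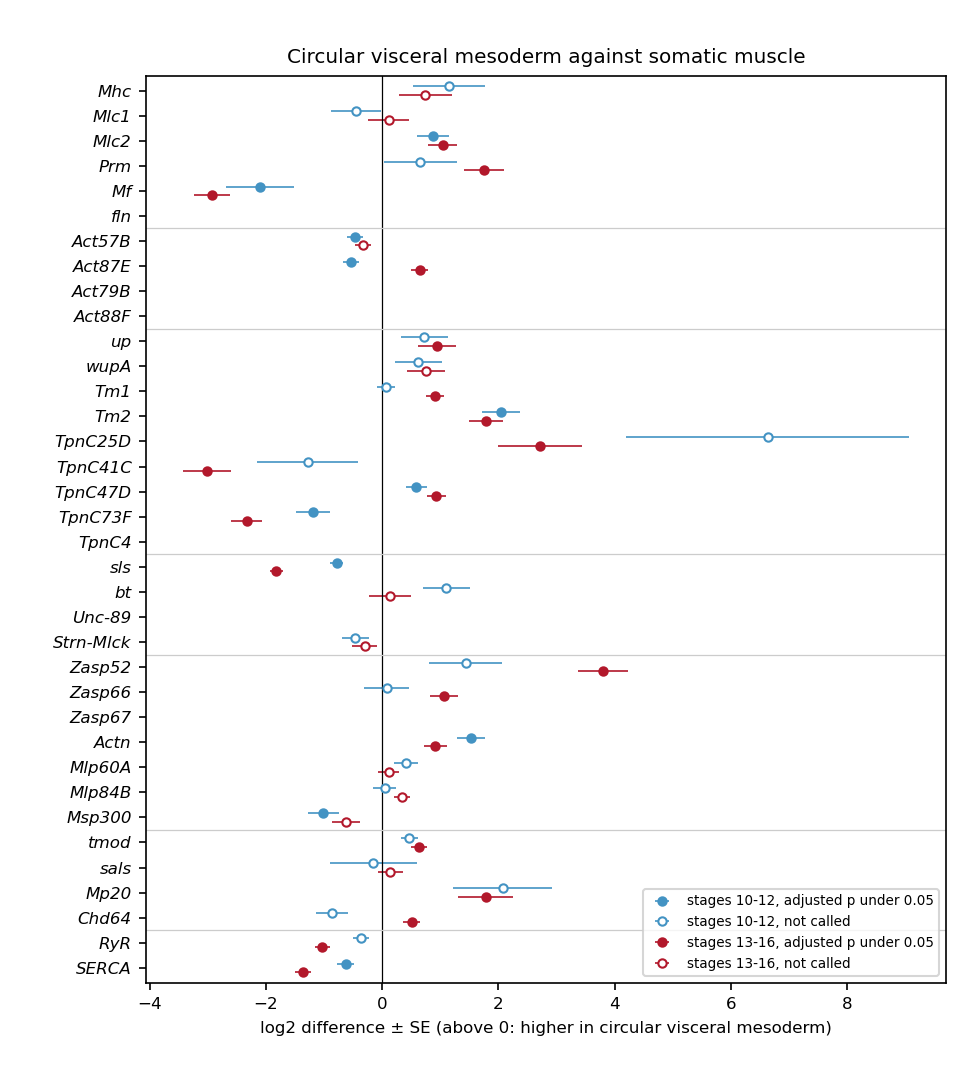
Log2 difference (CVM against somatic muscle) with its standard error for each member at both stages, with filled points at an adjusted p under 0.05. Zasp52, Tm2 and Mp20 lie to the right and TpnC41C, Mf, TpnC73F, sls, SERCA and RyR to the left at stages 13-16.

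All muscle and mesoderm cells were also summed, which includes precursors, FCMs and the pharyngeal muscle cells. Of 32 members tested, 24 rose, where 21.5% of all genes rose, and 1 (Act87E) fell, where 14.8% fell. In the libraries in order (early replicates 1 and 2, late replicates 1 and 2), thick filament genes in this sum were Mhc at 61.9, 3.36, 352 and 664 CPM, Mlc1 at 59.3, 16.4, 706 and 1357 CPM and Mlc2 at 174, 42.2, 1012 and 2478 CPM. The thin filament regulators were up at 45.5, 9.78, 376 and 1076 CPM, wupA at 29.4, 11, 379.5 and 1006 CPM and Tm2 at 48.9, 19.7, 381 and 939 CPM. Late values exceeded early ones for each of these. Troponin C genes were TpnC41C at 0.789, 0.952, 12.4 and 13.5 CPM, TpnC47D at 60.0, 26.1, 755 and 1055 CPM and TpnC73F at 128, 43.2, 961 and 1469 CPM. Others with large rises were Mlp60A at 95.6, 29.9, 829.5 and 1326 CPM, Mlp84B at 17.3, 10.5, 52.9 and 170 CPM, sals at 2.40, 0.571, 27.3 and 58.6 CPM and Mp20 at 27.5, 21.8, 96.5 and 332 CPM, with Chd64 at 6.61, 5.71, 24.6 and 66.6 CPM and Strn-Mlck at 91.4, 60.6, 572 and 496 CPM. Of these, wupA rose most, by log2 5.06 ± 0.60, adjusted p = 0.0047, and Chd64 least, by 2.83 ± 0.41 (adjusted p = 0.0075). In the non-muscle cells with a class name 5 of 34 members rose, where 9.31% of all genes rose. They were TpnC73F at 9.71, 3.03, 29.3 and 50.3 CPM, RyR at 4.23, 2.09, 18.6 and 14.8 CPM, Strn-Mlck at 12.6, 7.64, 55.8 and 40.4 CPM, Act57B at 96.7, 77.2, 156 and 274 CPM and Chd64 at 61.5, 41.1, 142 and 325 CPM. Of the 5, TpnC73F, RyR and Act57B were under the late droplets set aside in both libraries. The count in non-muscle cells was 13 by DESeq2, 18 and 13 without replicate 1 or replicate 2 of stages 10-12, and 0 without either library of stages 13-16, where edgeR gave 7 and 6 members an unadjusted p under 0.05.

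In the dorsal vessel (96 and 26 cells early, 42 and 67 late) 13 of 17 members tested rose, where 14.8% of all genes rose, and 1 (sls) fell, where 10.5% fell. The early and late cells differ in their heart markers, as given above, and the early sums held few UMIs of the contractile genes. Msp300 was at 4.91 and 1.20 CPM at stages 10-12 and 106 and 214 CPM at stages 13-16, from 9 and 1 UMIs, and rose by log2 5.46 ± 0.45, adjusted p = 8.1e-05. In library order, Mlc1 was at 2.18, 0, 14.3 and 77.9 CPM, Mlc2 at 13.1, 2.40, 22.2 and 169 CPM, wupA at 3.82, 0, 12.7 and 83.0 CPM, Tm2 at 3.27, 1.20, 28.6 and 144 CPM and TpnC47D at 4.37, 0, 14.3 and 63.8 CPM. All of these were below the droplets set aside in late replicate 1, and Tm2 alone of them was above in late replicate 2. The giant protein bt was at 7.09, 1.20, 11.1 and 37.5 CPM, Strn-Mlck at 4.91, 8.39, 23.8 and 80.0 CPM, RyR at 12.6, 1.20, 30.2 and 46.6 CPM and Chd64 at 3.27, 3.60, 30.2 and 55.7 CPM. Late bt and Chd64 were below the droplets set aside in both libraries, and Strn-Mlck was below them in late replicate 1. The most abundant of those that rose were Act57B, at 117 and 25.2 CPM at stages 10-12 and 353 and 549.7 CPM at stages 13-16, Tm1, at 209 and 165 CPM at stages 10-12 and 548 and 579 CPM at stages 13-16, and tmod, at 55.1 and 62.3 CPM at stages 10-12 and 143 and 206 CPM at stages 13-16. They rose by 2.65 ± 0.49 (adjusted p = 0.0034), 1.63 ± 0.24 (adjusted p = 0.0011) and 1.62 ± 0.25 (adjusted p = 0.0015), though late Act57B and Tm1 in replicate 2 lay under the droplets set aside. The fall of sls was from 396 and 235 CPM to 87.4 and 129 CPM, log2 -1.50 ± 0.28, adjusted p = 0.0039. Act87E was the leading actin, at 755 and 526 CPM at stages 10-12 and 667 and 943 CPM at stages 13-16. Without replicate 2 of stages 13-16, 9 members were called, and 6 after subtraction of free RNA.

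Precursors, hindgut muscle and pharyngeal muscle were described without a stage test. Muscle precursors (381 and 117 cells) held Act87E at 459 and 292 CPM, sls at 391 and 289.8 CPM, Act57B at 239 and 183 CPM, and Mhc at 4.06 and 0 CPM. Hindgut muscle (43 and 27 cells early, 109 and 129 late) held Mhc at 1.73 and 0 CPM at stages 10-12 and 258 and 458 CPM at stages 13-16, Mlc2 at 100.4 and 21.8 CPM at stages 10-12 and 992 and 1872 CPM at stages 13-16 and TpnC73F at 90.0 and 91.0 CPM at stages 10-12 and 329 and 847 CPM at stages 13-16. Late values exceeded early ones in each case. The pharyngeal muscle cluster had 47 cells in replicate 1 and 9 in replicate 2 of stages 10-12 and was not found late. In its replicate 1 cells the 36 genes took 11% of all UMIs, more than in any other class and library. There bt was at 20450 CPM, Mlc2 at 13760 CPM, sls at 13380 CPM, Mhc at 7503 CPM, Msp300 at 6081 CPM and Mf at 3965 CPM. Unc-89, near 0 elsewhere, was at 353 CPM and Zasp66 at 1867 CPM. The droplets set aside of that library held Mhc at 49.3 CPM and Mf at 36.8 CPM, against 0.142 and 0 CPM in replicate 2. These 47 cells come from 1 library, so the values have no replicate.

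Within somatic muscle the clusters differed in which members they carried. At stages 13-16 a shallow cluster (421 and 528 cells) held Mhc at 879 and 1388 CPM but Act57B at 546 and 1586 CPM. The deepest large cluster (832 and 479 cells) held Mhc at 237 and 726 CPM, and the third (487 and 814 cells) at 77.4 and 136 CPM. The genes bt, Strn-Mlck and Msp300 were also higher in the shallow cluster, bt at 1535 and 2166 CPM against 308 and 635 CPM in the other somatic cells, whereas Mlp60A was lower, at 220.1 and 458 CPM against 908 and 1600 CPM. At stages 10-12, 1 cluster held more Act87E than Act57B (1599 and 1289 against 619 and 478 CPM), and another held Act57B at 4231 and 3074 CPM.

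Shares of cells gave the same order where depth was made equal by thinning each cell to 1000 UMIs. In library order, Mhc was seen in 3.43%, 0.266%, 17.2% and 36.5% of somatic muscle cells and in 7.66%, 2.56%, 36.4% and 51.8% of CVM cells. In the CNS, where it should be absent, it was seen in 1.67%, 0.0722%, 1.92% and 7.49% of cells. The early somatic shares lay near those of the CNS, and the late ones above them in both libraries. Act57B was seen in 91.8%, 84.7%, 52.6% and 73.5% of FCMs and 37.8%, 37.0%, 72.3% and 91.4% of somatic muscle cells, against 13.7%, 15.5%, 19.6% and 34.0% of CNS cells. Median depths before thinning were 2302, 4892.5, 5405 and 10455 UMIs in somatic muscle and 3421, 2584.5, 2495 and 4678.5 UMIs in the CNS. Without thinning, Mhc was seen in 10.5% and 1.06% of early somatic muscle cells, with exact 95% intervals of 8.52% to 12.8% and 0.291% to 2.70%, which cover counting error only.

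The droplets set aside, which are low-quality clusters and not empty droplets, were used as a stand-in for free RNA, and that they measure it was not tested. Their median depth was 1457 to 2326 UMIs, against 2084 to 8462 UMIs in kept cells, with the closest pair in late replicate 1 (2012.5 and 2084 UMIs). At stages 13-16, 29 of the 36 members in somatic muscle, 28 in CVM, 26 in LVM and 25 in hindgut muscle were above them in both libraries. In FCMs 4 were above and 23 below in both, in the dorsal vessel 4 and 24, and in the CNS 3 and 26. At stages 10-12 the numbers above were 21 in somatic muscle, 22 in CVM, 12 in LVM and 10 in FCMs. The share of all genes above or below the droplets is not given, so these counts do not set the members apart from other genes.

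Other genes with related roles were counted for comparison. Of 15 other muscle structure and calcium genes tested in somatic muscle, 10 rose, among them tn (4.65 ± 0.48, adjusted p = 0.0092), a muscle ubiquitin ligase, l(2)efl (4.61 ± 0.79, adjusted p = 0.019), a small heat shock protein, and GlyP (3.98 ± 0.76, adjusted p = 0.023), glycogen phosphorylase. In CVM 12 of 16 rose, in LVM 8 of 14 and in FCMs 4 of 12. Of all genes tested, 11.7% rose in somatic muscle, 19.3% in CVM, 8.89% in LVM and 8.36% in FCMs. Of 9 cytoplasmic actin and nonmuscle myosin genes, 1 rose in somatic muscle, a share near that of all genes: cher (3.94 ± 0.44, adjusted p = 0.01), a filamin. Act5C, a cytoplasmic actin, fell in LVM (-1.51 ± 0.39, adjusted p = 0.042). Late CVM held more Act5C than late somatic muscle (1.02 ± 0.13, adjusted p = 5.2e-04) and less GlyP (-3.93 ± 0.17, adjusted p = 9.6e-06) and Argk1 (-3.25 ± 0.13, adjusted p = 7.0e-06), the arginine kinase that buffers muscle energy.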

How the data were processed

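Single-cell RNA was sequenced with the 10x Genomics 3′ v3.1 kit from 4 pools of OregonR embryos. The deposited values are raw UMI counts per gene and barcode, which the authors made with Cell Ranger 6.1.2, counting only reads mapped uniquely to the fly genome. Normalization was not applied before deposit, and the p-values given here were computed from the counts. The 17875 genes carry FlyBase identifiers, and gene positions are from Ensembl 115 (BDGP6.54). The members and lists were chosen with earlier results of these data known.

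Barcodes over 25% mitochondrial UMIs were left out. Libraries were clustered on 2000 variable genes, clusters with fewer than 50 marker genes were set aside as low-quality droplets, and doublets were predicted at an expected fraction of 0.008 of the cells per 1000 cells and removed. The stages were clustered separately with Harmony at a resolution of 2, without the 36 genes, and named from fixed markers detected for at least 3 genes. Replicates are separate libraries, and classes of at least 20 cells in a library were summed. Counts of cells and shares of classes can differ from those of the study because the class names were rebuilt here.

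Sums were tested with edgeR 4.0.16 (quasi-likelihood, TMM, filterByExpr, Benjamini-Hochberg over all genes tested, threshold 0.05). DESeq2 1.42.0 was an alternative, with RLE scaling, no low-count filter, doublets kept, a minimum of 1000 UMIs, members kept among the clustering genes, a resolution of 1, no Harmony, subtraction of free RNA, the replicate block, and each library left out. Values in every library are given for the members called in a stage test or between CVM and somatic muscle, the 15 with the largest change per comparison, and the rest by range or count. Tests of pharyngeal muscle were not run, since 1 library held at least 20 such cells. The test was first tried on simulated counts with known changes. Whether same-numbered replicates paired was checked over all genes: the correlation of their deviations ranged from -0.286 to 0.0490, so the numbers were taken not to pair the samples. Intervals cover counting error only.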

Additional observations from a re-analysis of the deposited data

Results flagged for a closer look

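For 4 members the difference between CVM and somatic muscle changed between the stages by a test of that change itself (edgeR interaction, adjusted over all genes tested), and the count ranged from 0 to 12 under the alternatives. Of all genes, 5.32% moved toward CVM and 5.96% away, and the members' shares, 3 and 1 of 30, lie near these. The contrast moved toward CVM for Act87E by log2 1.18, for Tm1 by log2 0.85 and for Chd64 by log2 1.37, and away from it for sls by log2 -1.04. The difference between somatic muscle and FCMs changed between the stages for 20 members, with 19 of 29 moving toward somatic muscle, where 18.3% of all genes did, and Act87E away, where 17.9% did. Both stages of each contrast use the same libraries for both classes, and the stage cannot be told apart from the library dates or the rearing temperature.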

How the results depend on the processing

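Of the 113 named gene values, 112 kept their direction and call with RLE scaling, 113 without the filter on low counts, 100 with DESeq2 and 32 of 94 after subtraction of free RNA. Where a value moved, the cause was not tested. Counts of called members moved as follows. After subtraction of free RNA they were 0 for the stage change in somatic muscle and LVM, 1 in FCMs, 6 in the dorsal vessel, 15 for CVM against non-muscle cells at stages 10-12, 0 for CVM against somatic muscle at either stage and for its change between stages, and 3, 0 and 1 for somatic muscle against FCMs early, late and between stages. At a resolution of 1 they were 5 in somatic muscle, 15 in CVM, 22 for CVM against somatic muscle early and 12 for its change. With no low-count filter they were 15 in FCMs, 11 in non-muscle cells, 22 for CVM against somatic muscle early and 10 for its change. With members kept among the clustering genes they were 11 in LVM and 8 for that change. With doublets kept they were 9 in non-muscle cells and 7 for that change. With a minimum of 1000 UMIs they were 8 for that change and 23 for FCMs against non-muscle cells late. Without Harmony they were 3 in non-muscle cells and 7 for CVM against somatic muscle early. DESeq2 called 13 in non-muscle cells. Leaving out shallow somatic clusters, chosen after seeing the data, left 2 for the change of CVM against somatic muscle. Leaving out each library in turn gave 5 to 28 in somatic muscle, 3 to 10 in FCMs, 8 to 25 in LVM, 9 to 19 in the dorsal vessel, 0 to 18 in non-muscle cells, 10 to 24 for CVM against somatic muscle early, 2 to 10 for its change, and 12 to 28 for somatic muscle against FCMs early. The replicate block gave 0 calls among members in non-muscle cells, where 18 of 34 had an unadjusted p under 0.05 by edgeR, and moved no other member count by over 1.5 times, although the pairing check found no shared number effect. With the numbers crossed between stages, added after seeing the data, the block called 17 members in non-muscle cells. The share of UMIs of the 36 genes became 0.656% in late FCMs and 0.638% in early CVM with doublets kept, and 1.03% in early CVM at a resolution of 1. Without thinning, Mhc was seen in 55.8% of late somatic muscle cells and 68.6% of late CVM cells, and Act57B in 99% of early FCMs. With 500 UMIs a cell, these were 29.8% for Mhc in CVM and 74.8% for Act57B, which was 82.1% with doublets kept. Signs turned for bt in the CVM stage change (-0.24 at a resolution of 1) and, for CVM against somatic muscle early, for Mf (4.53 at a resolution of 1, 0.24 without shallow clusters), Msp300 (0.27 at a resolution of 1), Act87E (0.54 at a resolution of 1), Mlc2 (-0.71) and TpnC47D (-0.84) with members kept among the clustering genes, and Act57B (0.14 with doublets kept, 0.0734 with a minimum of 1000 UMIs). Some alternatives gave no value for a comparison because a class then held under 20 cells in a library.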
